A study of Mus musculus with 15 samples.

Results

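A set of 8 genes of scavenger and lectin receptors was followed across lymphatic endothelial cells of the mouse: Marco, Msr1, Stab1, Stab2, Lyve1, Mrc1, Clec4g and Cd209b. The genes were chosen by name, as receptors known from the lymph node sinus, and with earlier results of these data known. They were taken by gene ID from a table of 21839 genes. Their counts below, set beside shares of all tested genes, therefore describe these 8 genes and do not test them as a set. All 8 passed the filter on low counts, which left 13887 genes for testing. The libraries came from C57bl/6 mice of 10 weeks into which a lymphangiogenic melanoma line had been transplanted. The 3 groups of 5 libraries each held cells of the tumor (Tumor), of the lymph node that drains it (TdLN) and of a lymph node that does not drain it (NdLN). The NdLN cells were thus also from tumor-bearing mice, and no group from mice without a tumor was analysed here. Cells had been sorted as negative for the leukocyte protein CD45 and positive for the endothelial protein CD31 and for gp38, the podoplanin of lymphatic endothelium. Whether each library was 1 animal or a pool is not stated in the labels, and the p-values therefore measure only how far these libraries spread.

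Scavenger receptors are membrane proteins that bind modified lipoproteins, polyanions, microbes and waste macromolecules and carry them into the cell, mostly by clathrin-coated vesicles that lead to lysosomes. C-type lectin receptors bind sugars on glycoproteins and pathogens in a way that often needs calcium. In a lymph node, lymph flows through sinuses that are lined by lymphatic endothelial cells and scanned by sinus macrophages, and several of these receptors are known from both kinds of cell and from the sinusoidal endothelium of the liver. Marco and Msr1 encode class A scavenger receptors. Stab1 and Stab2 encode the large receptors stabilin-1 and stabilin-2. Lyve1 encodes a hyaluronan receptor that is a widely used marker of lymphatic vessels. Mrc1 encodes the mannose receptor, Clec4g the lectin LSECtin, and Cd209b a mouse homologue of DC-SIGN called SIGN-R1.

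Promoter sequences are shown for Marco and Clec4g, which were nearly absent from Tumor libraries, and for Stab1, which was retained there at a lower level. RefSeq promoters on build GRCm38.p6 were held for 6 of the 8 genes, without Msr1 and Lyve1. Each sequence below is the 250 bases before the RefSeq gene start, 5′ to 3′ on the strand of the gene, and all 3 genes lie on the minus strand: chr1:120505025-120505274 for Marco, chr8:3720652-3720901 for Clec4g and chr14:31168642-31168891 for Stab1. Capitals mark every match, on either strand, to 6 short motifs, which were the TATA box (letters TATAAA), the AP-1 motif (letters TGANTCA), the GATA factor motif (letters AGATAA), the MAF half-site (letters TGCTGA), the SOX motif (letters AACAAT) and the ETS motif (letters AGGAAG).
Marco: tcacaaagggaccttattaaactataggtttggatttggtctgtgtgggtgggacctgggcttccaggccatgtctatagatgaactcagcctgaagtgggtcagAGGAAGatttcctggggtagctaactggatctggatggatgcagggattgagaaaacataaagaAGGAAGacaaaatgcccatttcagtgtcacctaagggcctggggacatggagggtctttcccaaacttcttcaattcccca
Clec4g: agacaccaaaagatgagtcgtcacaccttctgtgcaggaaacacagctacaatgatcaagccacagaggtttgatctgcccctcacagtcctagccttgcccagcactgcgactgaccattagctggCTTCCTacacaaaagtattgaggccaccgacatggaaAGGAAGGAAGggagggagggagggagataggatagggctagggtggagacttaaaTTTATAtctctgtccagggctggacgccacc
Stab1: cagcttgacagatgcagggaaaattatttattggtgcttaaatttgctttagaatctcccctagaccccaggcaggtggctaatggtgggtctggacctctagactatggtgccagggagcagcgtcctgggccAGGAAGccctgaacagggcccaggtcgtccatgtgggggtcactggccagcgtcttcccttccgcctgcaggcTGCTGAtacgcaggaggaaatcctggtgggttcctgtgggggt
The letters AGGAAG occurred at 2 places before Marco, at 3 before Clec4g, of which 2 overlap each other, and at 1 before Stab1. They were also present in the other 3 windows, at 3 places each before Mrc1 and Cd209b and at 1 before Stab2, so that the 6 windows of these genes share them whatever their level in Tumor libraries. Of all 32851 promoter windows of the same length, 29.5% hold these letters. A match to TATAAA stood 31 bases before the Clec4g start, on the strand opposite to the gene, and 12.4% of all windows hold this motif. A match to TGCTGA stood 43 bases before the Stab1 start, and 16.1% of all windows hold it. The exact letters searched for the AP-1, GATA factor and SOX motifs matched in none of the 6 windows, and 6.75%, 9.99% and 9.42% of all windows hold them. Variants of these letters were not searched, and the Clec4g window, for example, holds AGATAG, which differs from AGATAA in its last base. The windows are thus not shown to lack motifs of these factors. Of the Stab2 window, 83 bases lie inside the GENCODE M21 gene model, and the only match there, AGGAAG at 40 bases before the RefSeq start, lies in that stretch. A match describes letters in a window and is not a binding site, and the motifs were chosen with the levels of the genes known.

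The libraries were deep, with total counts of 23830337 to 34577494 in Tumor, 32134127 to 37043976 in TdLN and 31894931 to 37437282 in NdLN. Levels are given as CPM, counts scaled by library total and by the TMM factor. The genes of the sort proteins and of lymphatic identity were read first. Pdpn, for gp38, was at 116 ± 46.4 CPM in Tumor, 120 ± 15.4 in TdLN and 124 ± 20.7 in NdLN libraries (SD, n = 5 each). Pecam1, for CD31, was lower in Tumor, at 276 ± 86.6 CPM, than in TdLN at 1179 ± 87.1 and NdLN at 1596 ± 84.6. Ptprc, for CD45, was at 1.68 ± 1.45 CPM in Tumor, 1.1 ± 0.943 in TdLN and 5.42 ± 3.77 in NdLN. Flt4, the receptor of the lymphatic growth factor VEGF-C, was at 651 ± 265 CPM in Tumor, 894 ± 177 in TdLN and 908 ± 139 in NdLN. Prox1, the transcription factor that sets lymphatic identity, was at 105 ± 22.7 CPM in Tumor, 538 ± 74.9 in TdLN and 766 ± 52.9 in NdLN. Tumor libraries also held genes of other cells: 11 genes of pigment cells and melanoma summed to 24968 to 40951 CPM in Tumor, against 12.7 to 34.8 in TdLN and 18.8 to 39.2 in NdLN, and all 11 were higher in Tumor than in either node, beside 31.9% and 34% of all tested genes higher than in TdLN and NdLN. The summed CPM of 12 fibroblast genes was 5102 in Tumor, 326 in TdLN and 481 in NdLN, and that of 12 blood endothelial genes was 1755 in Tumor, 8772 in TdLN and 8297 in NdLN. For 8 other leukocyte genes it was 7.09 in Tumor, 3.84 in TdLN and 14.1 in NdLN, and for 10 lymphatic genes 3529 in Tumor, 6157 in TdLN and 8008 in NdLN. The blood endothelial sums of the nodes rested mainly on a few genes. Plvap, Cldn5 and Glycam1 were at 3324, 2380 and 2022 CPM in TdLN and 2501, 2635 and 1453 in NdLN. Flt1, Vwf and Sox17 were at 7.48, 14.3 and 1.47 CPM in TdLN and 26.3, 38.8 and 2.65 in NdLN. The part of other cells in the Tumor levels given here was not tested. In bulk samples such as these, fewer cells of a type and less RNA per cell cannot be told apart.

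Of the 8 receptor genes, 6 were lower in Tumor than in TdLN libraries and 2 were not called, at an adjusted p under 0.05 from edgeR's quasi-likelihood test. Over all 13887 tested genes 30.1% were lower and 31.9% higher in that comparison, 62% in either direction. Against NdLN, 5 of the 8 were lower and 1, Mrc1, was higher in Tumor, where 32.5% of all tested genes were lower and 34% higher, 66.5% in either direction. By size of change, Marco, Msr1, Stab2 and Clec4g each had a log2 fold change of -7 or lower in both comparisons, 4 of the 8, as did 1.3% of all tested genes against TdLN and 1.32% against NdLN. The bound of -7 was set with the values of these genes known, so the count of 4 describes them and is not a test. For all 6 lower genes against TdLN, and for all 5 against NdLN, every Tumor library lay below every library of the node, as for 22.5% and 27% of all tested genes (46.6% and 54.6% in either direction). The median log2 fold change of the 8 genes was -4.87 against TdLN and -4.85 against NdLN, beside 0.04 over all tested genes in each. The 2 comparisons share the Tumor libraries. Between the nodes, Lyve1 and Mrc1 were higher in TdLN than in NdLN, 2 of 8, beside 1.84% of all tested genes higher and 1.64% lower (3.49% in either direction), and the median of the 8 genes was -0.07, beside -0.01 over all genes.

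**Figure D1:**
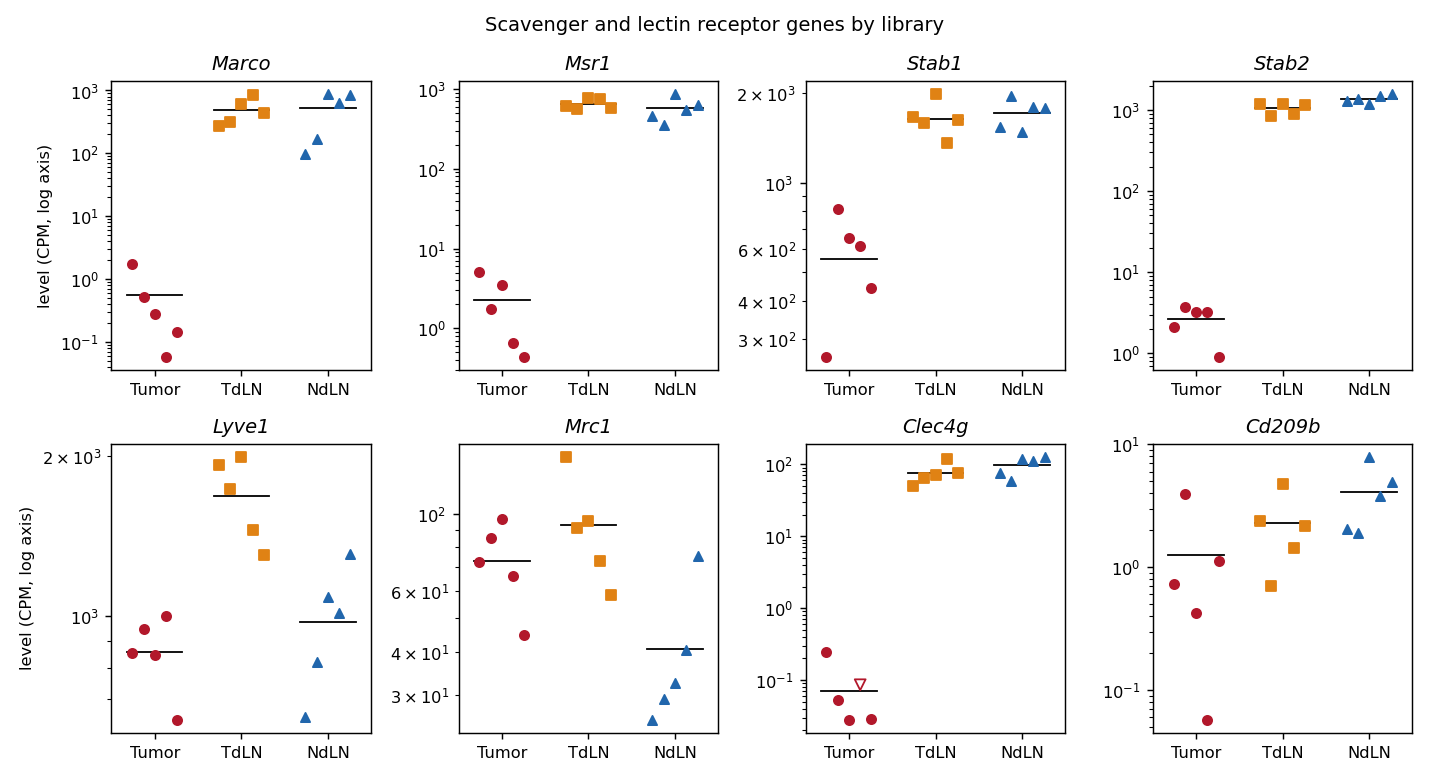
Level of each of the 8 genes in each library, in CPM on a log axis whose range differs between panels, with Tumor, TdLN and NdLN from left to right and replicates 1 to 5 in order within a group. Lines are group means, and the open triangle for Clec4g marks the limit that 0 counts allow in Tumor 4. Marco, Msr1, Stab2 and Clec4g of Tumor libraries lie far below those of every node library, while Lyve1 and Mrc1 of Tumor libraries overlap with the NdLN range.

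The class A scavenger receptors were read first. Marco, a trimeric receptor known from marginal zone and sinus macrophages that binds bacteria and particles, lies on the minus strand of GRCm38 at chr1:120474538-120505024. It was at 1.76, 0.525, 0.281, 0.0575 and 0.145 CPM in Tumor libraries 1 to 5, at 273, 310, 615, 848 and 434 CPM in TdLN libraries and at 97.2, 169, 873, 636 and 856 CPM in NdLN libraries. All 5 Tumor libraries lay below all 10 node libraries, with 80 Marco counts in the 5 Tumor libraries together against 85144 in TdLN and 89614 in NdLN. The log2 fold change was -9.92 ± 0.93 (SE) against TdLN (adjusted p = 3.04e-07, edgeR) and -10.00 ± 0.94 against NdLN (adjusted p = 2.34e-07, edgeR), with no overlap of libraries in either. Tumor 1 held the most Marco, and without it the values were -10.90 and -10.98 (adjusted p = 4.5e-07 and 3.45e-07, edgeR). The nodes differed by less than their spread (log2 fold change TdLN over NdLN of -0.09 ± 0.61, adjusted p = 0.963, edgeR), and the value lay between -0.37 and 0.17 when 1 library was left out.

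Msr1, the gene of scavenger receptor A that takes up modified low density lipoprotein, lies at chr8:39581685-39642673. It was at 5.08, 1.76, 3.48, 0.661 and 0.435 CPM in Tumor libraries 1 to 5, at 612, 560, 765, 747 and 584 CPM in TdLN and at 458, 358, 862, 550 and 628 CPM in NdLN libraries. Tumor libraries were again all below node libraries, and TdLN and NdLN libraries overlapped. The log2 fold change was -8.19 ± 0.60 against TdLN (adjusted p = 2.08e-08, edgeR) and -7.99 ± 0.60 against NdLN (adjusted p = 2.01e-08, edgeR). Between TdLN and NdLN it was 0.19 ± 0.43 (adjusted p = 0.861, edgeR).

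The 2 stabilins, multidomain receptors known from liver sinusoidal endothelium, differed in how low they were in Tumor libraries. Stab1, which binds SPARC and other ligands and shuttles between endosomes and the Golgi, was at 260, 816, 651, 612 and 442 CPM in Tumor libraries 1 to 5, at 1656, 1587, 1979, 1358 and 1617 CPM in TdLN and at 1539, 1945, 1479, 1793 and 1778 CPM in NdLN libraries. Every Tumor library lay below every node library, but the Tumor mean of 556 ± 212 CPM was still 33.9% of the TdLN mean of 1640 ± 222 and 32.6% of the NdLN mean of 1707 ± 193 (SD, n = 5 each). The log2 fold change was -1.56 ± 0.23 against TdLN (adjusted p = 2.85e-05, edgeR) and -1.62 ± 0.23 against NdLN (adjusted p = 1.66e-05, edgeR). The TdLN and NdLN ranges overlapped, with a log2 fold change TdLN over NdLN of -0.06 ± 0.22 (adjusted p = 0.925, edgeR).

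Stab2, a receptor that clears hyaluronan and other glycosaminoglycans from lymph and blood, was at 2.13, 3.73, 3.2, 3.25 and 0.898 CPM in Tumor libraries 1 to 5. In TdLN it was at 1193, 851, 1189, 883 and 1151 CPM, and in NdLN at 1291, 1356, 1201, 1489 and 1566 CPM. Tumor libraries were all far below node libraries, and the 5 TdLN libraries were all below the 5 NdLN libraries, though the highest TdLN value and the lowest NdLN value nearly met. The Tumor mean was 0.251% of the TdLN mean and 0.191% of the NdLN mean, with log2 fold changes of -8.63 ± 0.34 (adjusted p = 3.65e-11, edgeR) and -9.02 ± 0.35 (adjusted p = 2.41e-11, edgeR). Between the nodes the log2 fold change of -0.39 ± 0.24 was not called (adjusted p = 0.444, edgeR), and 4.95% of all tested genes had every TdLN library below every NdLN library, with 2.87% the other way round and 7.83% in either direction. Stab1 and Stab2 lie on chr14:31139013-31168641 and chr10:86841198-87008025, both on the minus strand. Short stretches of their exons overlap genes on the opposite strand, 1.09% of the exon bases of Stab1 with Nt5dc2 and 1.61% of those of Stab2 with Gm16268, and the kit does not mark strand.

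Lyve1, at chr7:110850607-110863239, had a Tumor level close to that of NdLN. It was at 855, 947, 847, 1002 and 640 CPM in Tumor libraries 1 to 5, at 1924, 1730, 1989, 1454 and 1303 CPM in TdLN and at 649, 822, 1088, 1016 and 1309 CPM in NdLN libraries. The Tumor range lay below the TdLN range and inside or next to the NdLN range, and among the nodes the highest NdLN library was just above the lowest TdLN library. Tumor was lower than TdLN with a log2 fold change of -0.97 ± 0.18 (adjusted p = 0.000284, edgeR), and the value against NdLN was -0.19 ± 0.18 (adjusted p = 0.374, edgeR). TdLN was higher than NdLN, with means of 1680 ± 296 and 977 ± 253 CPM (SD, n = 5 each), a log2 fold change of 0.78 ± 0.18 and an adjusted p of 0.0288 from edgeR. This last call rested on single libraries: without NdLN 1, NdLN 2, NdLN 4, TdLN 1, TdLN 2 or TdLN 3, each left out alone, the adjusted p was 0.0559, 0.0801, 0.0624, 0.0841, 0.0682 and 0.0675 (edgeR), while the log2 fold change stayed at 0.67 to 0.80.

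Among the lectin receptors Mrc1, the mannose receptor of macrophages and lymphatic endothelium that also binds collagen and L-selectin, was the 1 gene of the 8 that was called higher in Tumor than in NdLN. Mrc1, at chr2:14229392-14332057 on the plus strand, was at 72.4, 85.2, 96.8, 66.0 and 44.5 CPM in Tumor libraries 1 to 5, at 146, 90.7, 95.4, 72.9 and 58.1 CPM in TdLN and at 25.4, 29.1, 32.4, 40.5 and 75.4 CPM in NdLN libraries. NdLN 1 to 4 were below every Tumor and every TdLN library, and NdLN 5 lay inside both ranges. Tumor was higher than NdLN, at 73.0 ± 19.9 and 40.6 ± 20.3 CPM, with a log2 fold change of 0.85 ± 0.31 (adjusted p = 0.0246, edgeR). TdLN, at 92.6 ± 33.3 CPM, was higher than NdLN with a log2 fold change of 1.19 ± 0.31 (adjusted p = 0.0481, edgeR), and Tumor over TdLN was -0.34 ± 0.31 (adjusted p = 0.348, edgeR).

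Both Mrc1 calls were close to the threshold. The call of Tumor over NdLN was lost without NdLN 1, NdLN 2, NdLN 3, Tumor 2 or Tumor 3, with adjusted p of 0.0633, 0.0606, 0.0584, 0.0621 and 0.0749 (edgeR). The call of TdLN over NdLN was lost without NdLN 1, 2, 3 or 4 (adjusted p of 0.106, 0.122, 0.112 and 0.105, edgeR) and without TdLN 1, 2 or 3 (0.147, 0.0979 and 0.0867). It was also lost with RLE factors, upper quartile factors, no filter or a fit of only these 2 groups, with adjusted p of 0.0545, 0.0571, 0.0565 and 0.0666 (edgeR). Mrc1 stands beside a macrophage signal in Tumor libraries: 19 macrophage genes summed to 159 to 333 CPM in Tumor, 41.4 to 86.5 in TdLN and 32.6 to 88.5 in NdLN libraries, and in each tumor comparison 14 of the 18 tested (77.8%) were higher and 2 (11.1%) lower, beside 31.9% higher and 30.1% lower of all tested genes against TdLN and 34% and 32.5% against NdLN. The 2 lower ones were Aif1 and Timd4, by -2.02 and -3.01 against TdLN on the log2 scale. Of these markers Vsig4 was at 0 in all TdLN libraries. The part of macrophage RNA in the Mrc1 level of Tumor libraries was not tested.

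Clec4g, a lectin known from sinusoidal endothelium of liver and lymph node, lies at chr8:3707064-3720651. It was at 0.246, 0.0525, 0.0281, 0 and 0.029 CPM in Tumor libraries 1 to 5, at 50.7, 65.4, 70.3, 117 and 75.5 CPM in TdLN and at 75.5, 58.8, 118, 111 and 127 CPM in NdLN libraries. The 5 Tumor libraries held 10 Clec4g counts together, and the count of 0 in Tumor 4 allows up to 0.0862 CPM, counting error only. No Tumor library came near a node library, and TdLN and NdLN libraries overlapped. The log2 fold change was -10.20 ± 0.52 against TdLN (adjusted p = 3.74e-10, edgeR), -10.57 ± 0.52 against NdLN (adjusted p = 2.33e-10, edgeR) and -0.37 ± 0.31 for TdLN over NdLN (adjusted p = 0.591, edgeR). Without Tumor 1, the highest Tumor library, the tumor comparisons gave -11.23 against TdLN and -11.60 against NdLN (adjusted p = 5.51e-10 and 3.74e-10, edgeR). Of its exon bases 5.93% overlap Gm16553 on the opposite strand.

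Cd209b, which encodes a receptor of sinus and marginal zone macrophages that binds polysaccharides of bacteria, lies near Clec4g at chr8:3917655-3926844 and was the lowest of the 8 in both nodes per length of exon. It was at 0.737, 3.96, 0.421, 0.0575 and 1.13 CPM in Tumor libraries 1 to 5, at 2.39, 0.709, 4.72, 1.44 and 2.15 CPM in TdLN and at 2.04, 1.91, 7.89, 3.81 and 4.97 CPM in NdLN libraries. All 3 groups overlapped, and Tumor 2 was the highest Tumor library. The log2 fold change was -0.85 ± 0.77 for Tumor over TdLN (adjusted p = 0.354, edgeR), -1.70 ± 0.78 for Tumor over NdLN (adjusted p = 0.0652, edgeR) and -0.85 ± 0.76 for TdLN over NdLN (adjusted p = 0.618, edgeR). Without Tumor 2 both tumor comparisons passed the test, at -2.00 against TdLN (adjusted p = 0.0287, edgeR) and -2.84 against NdLN (adjusted p = 0.0043, edgeR). DESeq2 called Tumor over NdLN with all libraries, at -1.72 (adjusted p = 0.0371).

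**Figure D2:**
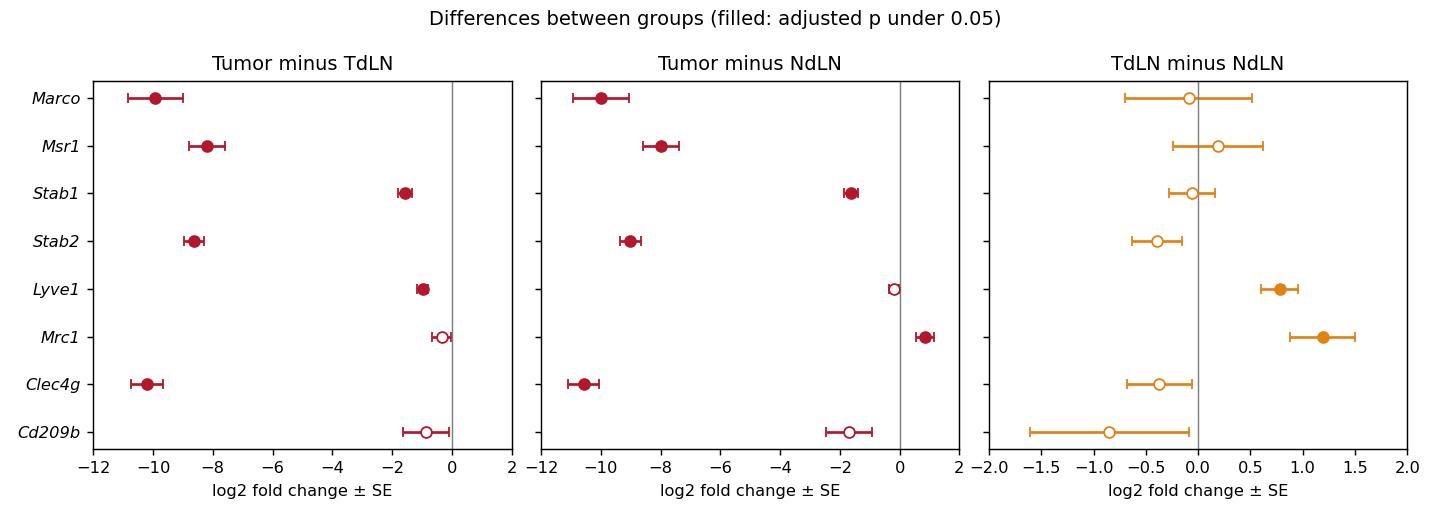
Log2 fold change ± SE of the 8 genes in the 3 comparisons, from edgeR's fit of all 15 libraries, with filled points at an adjusted p under 0.05. Marco, Msr1, Stab2 and Clec4g lie at -7 or lower in both tumor comparisons, and only Lyve1 and Mrc1 are filled in the comparison of the nodes, whose axis is narrower.

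Levels of different genes were compared per length of exon, as RPKM (CPM per kilobase of exon). In Tumor libraries Lyve1 stood at 294 ± 47.3 RPKM and made up 81.4% of the summed RPKM of the 8 genes. Stab1 followed at 54.0 ± 20.6 RPKM and Mrc1 at 11.5 ± 3.12, each with a range clear of the next. The other 5 genes were all under 1 RPKM on average, from 0.596 for Cd209b to 0.0289 for Clec4g, and each overlapped with its neighbour in the order.

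In TdLN libraries the order was Lyve1 at 576 ± 101 RPKM, Marco at 258 ± 124, Stab1 at 159 ± 21.6, Stab2 at 120 ± 19.6, Msr1 at 103 ± 15.1, Clec4g at 30.8 ± 10.2, Mrc1 at 14.5 ± 5.22 and Cd209b at 1.08 ± 0.715. Lyve1 was clear of Marco, Msr1 of Clec4g and Mrc1 of Cd209b, and the other neighbours overlapped. In NdLN libraries the order was the same, with Lyve1 at 335 ± 86.6 RPKM, Marco at 273 ± 193, Stab1 at 166 ± 18.8, Stab2 at 158 ± 16.9, Msr1 at 90.1 ± 30.2, Clec4g at 39.8 ± 11.9, Mrc1 at 6.37 ± 3.18 and Cd209b at 1.95 ± 1.16, and here Lyve1, Marco and Stab1 each overlapped with the next and the others did not. Lyve1 made up 45.6% of the summed RPKM in TdLN and 31.3% in NdLN. The sum of the 8 genes was 361 ± 62.2 RPKM in Tumor, 1262 ± 164 in TdLN and 1070 ± 318 in NdLN libraries (SD, n = 5 each), and every Tumor library, at 270 to 420, was below every node library, at 678 to 1495.

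**Figure D3:**
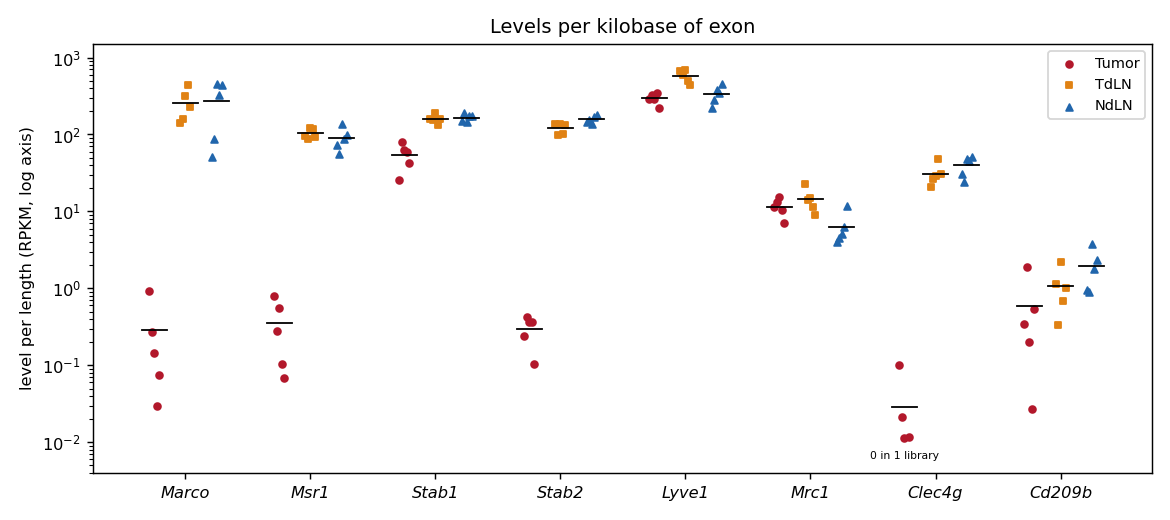
Level per kilobase of exon of the 8 genes in each library, in RPKM on a log axis, with lines at group means. Clec4g had 0 counts in 1 Tumor library, which is not drawn. Lyve1 is the highest of the 8 in each group by its mean, and the means of Marco, Msr1, Stab2 and Clec4g lie under 1 RPKM in Tumor libraries and at 30.8 RPKM or more in the nodes.

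Prox1 itself was lower in Tumor, with log2 fold changes of -2.36 against TdLN and -2.87 against NdLN (adjusted p = 3.3e-09 and 4.07e-10, edgeR). Pecam1 was also lower in Tumor, by -2.10 against TdLN and -2.53 against NdLN (adjusted p = 2.5e-07 and 3.12e-08, edgeR). Each gene was also set against a lymphatic gene of the same library, as a log2 ratio of counts that does not depend on scaling. The differences in the mean ratio were tested with exact two-sided permutation tests over libraries, adjusted over the 24 tests of 8 genes and 3 comparisons, where 5 against 5 libraries allow no p below 0.00794. Against Prox1, Marco, Msr1, Stab2 and Clec4g were still lower in Tumor than in TdLN, by -8.10, -6.31, -6.39 and -8.02 on the log2 scale, and lower than in NdLN by -7.32, -5.55, -6.27 and -7.87, each with an adjusted exact p of 0.0127. Against Flt4, whose level differed less between the groups, the 4 differences were -9.91, -8.12, -8.20 and -9.83 against TdLN and -9.62, -7.84, -8.57 and -10.16 against NdLN (adjusted exact p = 0.0173 each). Against Pecam1, for CD31, they were -8.31, -6.52, -6.60 and -8.23 against TdLN and -7.61, -5.83, -6.56 and -8.16 against NdLN (adjusted exact p = 0.0119 each). These 4 genes were thus far lower in Tumor whichever of the 3 genes they were set against.

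For Stab1, Lyve1 and Mrc1 the ratios to Prox1 and to Pecam1 gave the same calls in the tumor comparisons, and those to Flt4 did not. Relative to Prox1, Stab1 was higher in Tumor than in TdLN by 0.73 (adjusted exact p = 0.0212) and than in NdLN by 1.18 (0.0127), whereas relative to Flt4 it was lower by -1.08 and -1.11 (adjusted exact p = 0.0173 each). Relative to Pecam1 it was higher by 0.52 and 0.90 (adjusted exact p = 0.0119 each). Lyve1 was higher in Tumor relative to Prox1, by 1.41 over TdLN and 2.74 over NdLN (adjusted exact p = 0.0127 each), but relative to Flt4 the differences were -0.40 and 0.44 (adjusted exact p = 0.413 each), and relative to Pecam1 they were 1.20 and 2.45 (0.0119 each). Mrc1 relative to Prox1 was higher in Tumor by 2.06 over TdLN and 3.81 over NdLN (adjusted exact p = 0.0127 each), and relative to Flt4 the differences were 0.25 over TdLN (adjusted exact p = 0.71) and 1.52 over NdLN (0.044). Relative to Pecam1, Mrc1 was higher in Tumor by 1.85 over TdLN and 3.53 over NdLN (adjusted exact p = 0.0119 each). For Cd209b the ratio to Prox1 differed by 0.80 between Tumor and TdLN (adjusted exact p = 0.528) and by 0.41 between Tumor and NdLN (0.698), and relative to Pecam1 the differences were 0.59 (0.689) and 0.12 (0.929). Between TdLN and NdLN, Lyve1 and Mrc1 were higher in TdLN relative to Prox1, by 1.32 (adjusted exact p = 0.0127) and 1.75 (0.0212), and relative to Flt4, by 0.84 (0.0173) and 1.27 (0.0317). Msr1 and Stab1 were higher in TdLN relative to Prox1 by 0.76 (adjusted exact p = 0.0212) and 0.46 (0.0127), and relative to Flt4 the differences were 0.28 (0.544) and -0.03 (0.913). Relative to Pecam1 all 4 were higher in TdLN, Lyve1 by 1.24 and Stab1 by 0.38 (adjusted exact p = 0.0119 each), Mrc1 by 1.68 (0.0224) and Msr1 by 0.68 (0.0423).

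**Figure D4:**
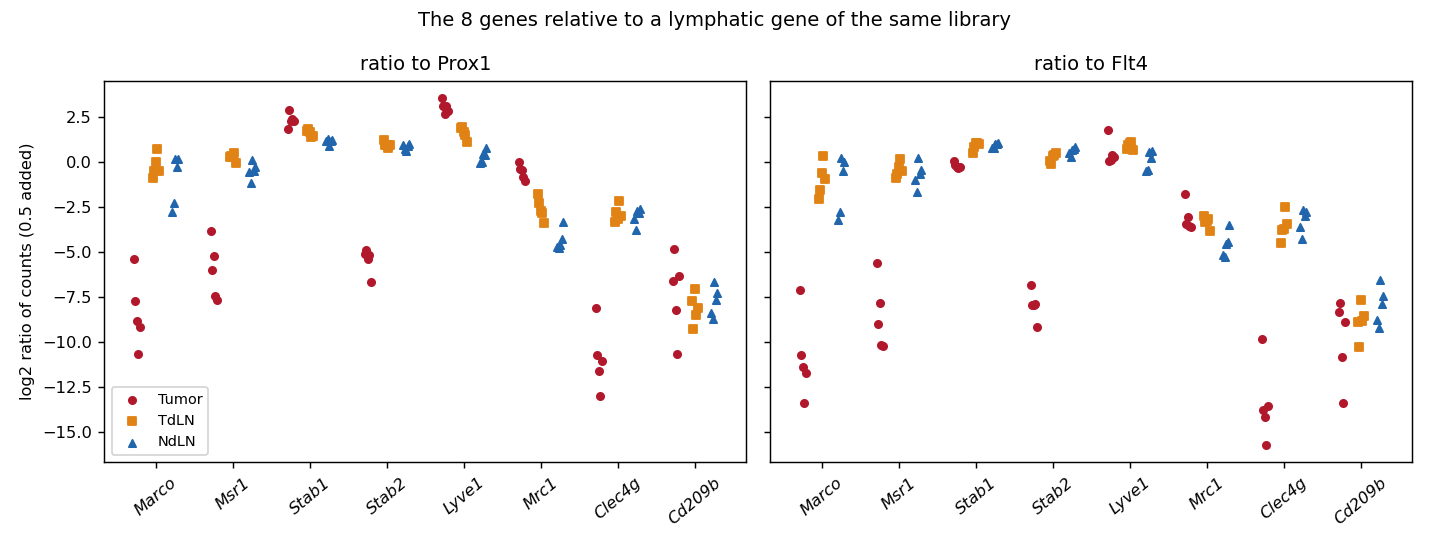
Log2 ratio of the count of each of the 8 genes to that of Prox1 and of Flt4 in the same library, with 0.5 added to each count and the groups Tumor, TdLN and NdLN from left to right for each gene. Marco, Msr1, Stab2 and Clec4g of Tumor libraries lie below those of the nodes in both panels, and Stab1 of Tumor libraries lies mostly above the nodes in the Prox1 panel and below them in the Flt4 panel.

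The 8 genes also varied unequally among libraries of 1 group. Marco had the widest spread of the 7 genes above 10 CPM in the nodes, with a coefficient of variation of 48.0% in TdLN and 70.7% in NdLN. Of the genes above 10 CPM in the group, 92.3% had a lower one in TdLN and 98.1% in NdLN. In NdLN, Stab2 and Stab1 had the smallest values of the 7, at 10.7% and 11.3%, beside a median of 12.1% over all such genes. In TdLN the smallest were 13.6% for Stab1, 14.6% for Msr1 and 16.3% for Stab2, beside a median of 15.2%. Within NdLN the spread had a pattern: libraries NdLN 1 and NdLN 2 were both below NdLN 3, 4 and 5 for Marco, Msr1, Lyve1, Mrc1, Clec4g and Cd209b, 6 of the 8, as were 15.1% of all tested genes. Marco reached at most 169 CPM in the first 2 of these libraries and at least 636 CPM in the other 3. The split was seen in the values of these same genes, so the count of 6 is not a test of it. These libraries also differed over the whole table of genes. The mean chi-square per gene of the counts was 73 to 193 between the 2 sets of NdLN libraries and 28.3 to 57.6 within them. Among TdLN libraries it was 48.1 to 256 and among Tumor libraries 66.6 to 212, so values of this size were not particular to this split. The measure also includes the genes in which the split was seen.

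Stab1 and Stab2 did not follow this split, since NdLN 3 was the lowest NdLN library for both. The summed CPM of macrophage genes was also lowest in NdLN 1 and NdLN 2, at 32.6 and 46.4, against 88.5, 60.8 and 79.9 in NdLN 3, 4 and 5. So was that of other leukocyte genes, at 1.4 and 9.88 against 20.2, 18.1 and 20.8. The sum of fibroblast genes was at 295 and 404 against 421, 643 and 642. The part of macrophage, other leukocyte or fibroblast RNA in the 6 genes was not tested. Of 12 blood endothelial genes, 4 (Plvap, Cldn5, Emcn and Fabp4) were each higher in NdLN 1 and NdLN 2 than in the other 3 NdLN libraries. The rest of the 12 did not have this order, and the share of all tested genes with it is not given here. The sum of the 12 was 9909 and 11445 CPM in NdLN 1 and NdLN 2 and 6660 to 6743 in the other 3. Plvap alone was at 4179 and 5002 CPM in NdLN 1 and NdLN 2 and 923 to 1457 in the other 3, and without it the sums overlapped, at 5730 and 6443 against 5286 to 5805. Their part in the 6 genes was not tested. In Tumor libraries, where the macrophage sum was higher than in any node library, Marco, Msr1 and Clec4g were highest in Tumor 1, 3 of the 8, as were 32.6% of all tested genes, a share near that of the 8. Tumor 1 also had the highest macrophage sum, of 333 CPM, and the lowest total count.

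**Figure D5:**
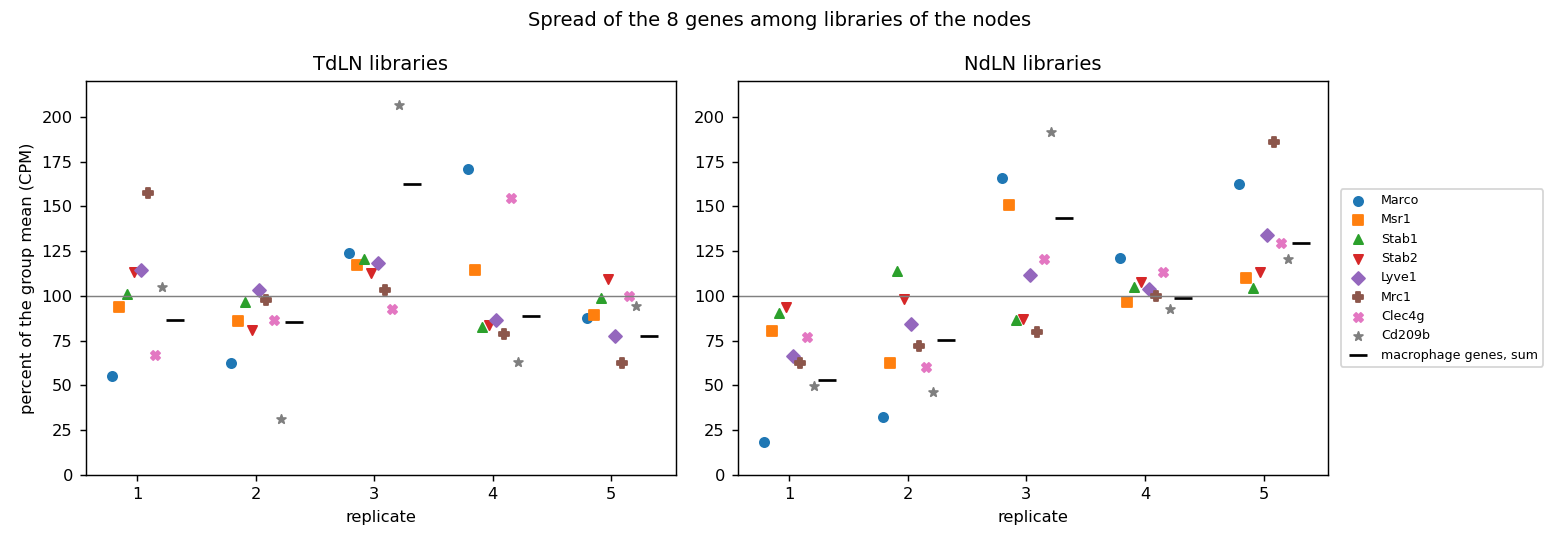
Level of each of the 8 genes in each node library as a percent of its group mean, with the summed level of 19 macrophage genes as a dash, for TdLN on the left and NdLN on the right. In NdLN 1 and NdLN 2 most of the genes and the macrophage sum lie under 100%, and Marco spreads the most of the genes above 10 CPM.

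Genes whose pattern was most like that of each receptor were sought over the 15 libraries among 8752 candidates, by the root mean square difference of centred log2 CPM, where a smaller value means a closer match. Marco was matched most closely by Csf2rb2, at 0.73, then Glycam1 at 0.82 and Dsg2 at 0.84, and Clec4g by Astn1 at 0.49, Csf2rb2 at 0.51 and Ackr4 at 0.54. Stab2 was matched by Timp4 at 0.49, Lrrn1 at 0.58 and A2m at 0.61, and Msr1 by Timp4 at 0.70 and by Itga2b and Col6a4 at 0.71 each. The median difference over all candidates was 4.06 to 4.86 for these 4 genes. Centred values compare changes between libraries and not levels, so a match is a gene with a similar drop in Tumor libraries. The mean levels of the matches in Tumor libraries ran from 0.00525 CPM for A2m to 5.12 CPM for Itga2b, against 19.0 CPM or more in each node.

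Stab1 was matched by Taok2 at 0.13 and by Myo1c and Tie1 at 0.16 each, Lyve1 by Ctsd and Tab2 at 0.28 each and Cdc42ep2 at 0.30, and Mrc1 by Rps6ka3 at 0.37, Slc43a1 at 0.44 and Slc41a2 at 0.46, with medians of 0.70 to 0.93 over all candidates. Cd209b was too low for this search. Among the 8 genes themselves, Marco and Clec4g were the closest pair of the 4 that were nearly absent from Tumor, at 0.77, and Lyve1 and Mrc1 the closest of all pairs, at 0.53. Over the 10 node libraries alone the closest pair was Stab1 and Stab2, at 0.22, where Marco and Clec4g differed by 0.77.

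Other genes of the same routes were read from lists of genes, whose counts stand beside 30.1% lower and 31.9% higher of all tested genes against TdLN, 32.5% and 34% against NdLN, and 3.49% called in either direction between the nodes. Of 18 other scavenger and lipoprotein receptors, 10 were lower (55.6%) and 4 higher (22.2%) in Tumor than in TdLN, with a median log2 fold change of -1.03 beside 0.04 over all tested genes, and 9 were lower (50.0%) and 4 higher (22.2%) than in NdLN, with a median of -0.84. Cd36, a class B receptor for oxidized lipids and fatty acids, was at 20.2 ± 5.32 CPM in Tumor, 1811 ± 407 in TdLN and 3325 ± 689 in NdLN, with log2 fold changes of -6.49 and -7.36 (adjusted p = 3.06e-11 and 1.15e-11, edgeR). Cxcl16, a membrane chemokine that also binds oxidized lipoprotein, Scarf1 and Colec12 were lower than in TdLN by -4.51, -1.60 and -2.33 on the log2 scale. Between the nodes Cd36 and Colec12 were lower in TdLN, by -0.88 (adjusted p = 0.0267, edgeR) and -0.76 (adjusted p = 0.0431, edgeR), 2 of 18 (11.1%), and the other 16 were not called.

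Of 28 tested genes among 34 other C-type lectin genes in the table, 14 were lower (50.0%) and 11 higher (39.3%) in Tumor than in TdLN, with a median log2 fold change of -0.93, and 14 were lower (50.0%) and 9 higher (32.1%) than in NdLN, with a median of -0.99. Called in either direction were 89.3% and 82.1%, beside 62% and 66.5% of all tested genes. Clec1a, Thbd for thrombomodulin, Clec14a and Colec11 were lower than in TdLN with log2 fold changes of -3.07, -4.45, -6.07 and -3.19. Colec11, a soluble collectin, was the only 1 of the 28 called between the nodes, lower in TdLN by -1.13 (adjusted p = 0.00968, edgeR), and this share of 3.57% is near the 3.49% of all tested genes.

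Of 15 genes of hyaluronan, the ligand of Lyve1 and Stab2, 7 were lower (46.7%) and 6 higher (40%) in Tumor than in TdLN, with a median log2 fold change of -1.22. Against NdLN 5 were lower (33.3%, near the 32.5% of all tested genes) and 6 higher (40%), with a median of 0.86. The hyaluronidase genes Hyal2 and Hyal1 and Cemip2, which encodes a cell surface hyaluronan-degrading protein, were lower than in TdLN by -2.57, -2.31 and -2.44 on the log2 scale. Cd44, another hyaluronan receptor, was at 288 ± 56.1 CPM in Tumor, 85.2 ± 7.77 in TdLN and 59.6 ± 18.7 in NdLN, higher than in TdLN by 1.76 and than in NdLN by 2.27 (adjusted p = 2.23e-06 and 1.44e-07, edgeR). Between the nodes Hyal2, Has2, a hyaluronan synthase, and Hmmr, a hyaluronan-binding protein of the mitotic spindle, were higher in TdLN by 0.39, 3.17 and 2.44 (adjusted p = 0.0224, 0.0123 and 0.00424, edgeR), with Has2 at 8.85 ± 5.37 CPM in TdLN and 0.976 ± 0.399 in NdLN.

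Of 26 genes of clathrin uptake and lysosomes, 10 were lower (38.5%) and 5 higher (19.2%) in Tumor than in TdLN, with a median log2 fold change of -0.21, and 10 were lower (38.5%) and 6 higher (23.1%) than in NdLN, with a median of -0.13. Called in either direction were 57.7% and 61.5%, slightly less than the 62% and 66.5% of all tested genes. The endocytic adaptor Dab2, the recycling genes Ehd1 and Ehd3 and the lysosomal protease Ctsl were lower than in TdLN by -2.56, -1.83, -2.53 and -1.93. Only Ap2s1, a subunit of the clathrin adaptor AP-2, was called between the nodes, higher in TdLN by 0.74 (adjusted p = 0.0183, edgeR), 3.85% of the list and near the 3.49% of all tested genes. Of 3 extracellular ligands of the stabilins, Tgfbi and Postn were lower in Tumor than in TdLN, by -3.24 and -2.76, and than in NdLN, by -3.29 and -3.02. Sparc differed by -0.10 between Tumor and TdLN (adjusted p = 0.473, edgeR), but was higher in Tumor than in NdLN by 0.38 (adjusted p = 0.011, edgeR) and higher in TdLN than in NdLN by 0.49 (adjusted p = 0.0376, edgeR). Of 9 tested genes of transcription factors known from sinusoidal endothelium or macrophages, 7 were lower (77.8%) and 2 higher (22.2%) in Tumor than in TdLN, with a median log2 fold change of -1.97, and 7 were lower (77.8%) and 1 higher (11.1%) than in NdLN, with a median of -2.15. Gata4, a factor of liver sinusoidal endothelium in the mouse, was at 1.69 ± 0.588 CPM in Tumor, 53.5 ± 25.8 in TdLN and 42.0 ± 13.0 in NdLN, Meis2 and Nr1h3 were lower than in TdLN by -2.42 and -1.97, and Mef2c was higher by 1.08. Between the nodes the adjusted p of the 9 ran from 0.0989 for Mef2c to 0.954 for Spic (edgeR).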

How the data were processed

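RNA of 1 ng per library was amplified with a low-input kit and read as single reads of 50 bases, per the labels' protocols. The authors deposited raw, unnormalized counts of reads for each gene. The submitters' processing notes name featureCounts 1.4.6, STAR 2.4, CASAVA 1.8.2 and build GRCm38, and the annotation release is not given in the sources used here. Gene IDs were matched to GENCODE M21, which held 21628 of 21839 and gave names, coordinates and exon lengths. All windows of 50 bases of the longest transcript of each of the 8 genes were unique to the gene, except for Stab1 (99.21% unique) and Stab2 (98.83%). Exon bases outside the longest transcript were not examined. For Clec4g that transcript has 1442 bases, beside 2462 exon bases of the gene.

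Groups were compared with edgeR 4.0.16 in R 4.3.3 (glmQLFit, robust, and glmQLFTest, TMM factors, filterByExpr) in 1 fit of all 15 libraries, with Benjamini-Hochberg adjustment over all 13887 tested genes and a threshold of 0.05. The steps were tested on simulated data. Levels are CPM, means ± SD, and RPKM from union exon lengths. Log2 ratios added 0.5 to each count. Total counts per library set the counting error, and since amplified reads carry no molecular identifiers, limits cover counting error only. The lowest mean chi-square per gene between libraries of 1 group was 28.3, so none was taken as a duplicate.

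The 8 genes, the lists and the motifs were chosen with earlier results of these data known. The text names the 8 genes, up to 4 genes of each list with the smallest adjusted p in a comparison, markers that define a cell type, and the 3 genes most like each of the 8 by pattern (mean of 10 CPM or more in node libraries, no predicted genes). Alternatives were RLE and upper quartile factors, no filter, a filter of 10 CPM in 5 libraries, a replicate block, a fit of just 2 groups, DESeq2 1.42.0, Flt4 or Pecam1 in place of Prox1, 2 counts in place of 0.5, and each library left out in turn. Figures were drawn with matplotlib 3.10.9.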

Additional observations from a re-analysis of the deposited data

Results flagged for a closer look

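Of 42 groups of 5 values examined (the 8 genes and 6 summed cell type lists in each group), 5 held a library that stood apart, with a gap to its nearest neighbour of over 0.71 of the group's range. For normally distributed values, chance flags about 1 group in 20. CPM values near 0 are skewed, and the rate for them was not worked out. In Tumor libraries, Marco was at 1.76 CPM in Tumor 1, where the next value was 0.525, and Clec4g at 0.246 CPM in Tumor 1, where the next was 0.0525. Tumor 1 was also the library in which the summed level of other leukocyte genes stood apart, at 11.6 CPM, with 5.39 to 6.49 in the other 4 Tumor libraries. Cd209b was at 3.96 CPM in Tumor 2, where the next Tumor value was 1.13. The summed level of macrophage genes was 86.5 CPM in TdLN 3, with 41.4 to 47.3 in the other 4 TdLN libraries, and TdLN 3 was also the highest TdLN library for Msr1, Stab1, Lyve1 and Cd209b, 4 of the 8, as for 17.3% of all tested genes. For the same place of Tumor 1 among Tumor libraries, 3 of the 8 stand beside 32.6% of all tested genes.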

How the results depend on the processing

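The 6 lower genes of Tumor against TdLN and the calls of Marco, Msr1, Stab1, Stab2 and Clec4g against NdLN kept their direction and side of the threshold under every alternative run that gave them a value. Between TdLN and NdLN, the 2 called genes became 1 with RLE factors, upper quartile factors, no filter or a fit of only the 2 groups, 0 with the replicate block, and 0 to 2 with 1 library left out, and the 484 genes called over the table became 994 with DESeq2 and 225 to 564 with 1 library left out. Of the 4 genes higher in TdLN relative to Prox1, 2 were called relative to Flt4 and all 4 relative to Pecam1. Correlations of the deviations of same-numbered libraries were -0.21 to 0.248 (15 pairs, median -0.0392, 4 of them over 0.1). Those of libraries with different numbers were -0.362 to 0.321 (60 pairs, median -0.019, 14 of them over 0.1). Cells of different tissues need not deviate together, so these values cannot tell whether the numbers pair the libraries. With the replicate block, 8381, 8995 and 400 genes were called for Tumor over TdLN, Tumor over NdLN and TdLN over NdLN, against 8614, 9230 and 484 without it, and the adjusted p was 0.0639 for Mrc1 in Tumor over NdLN and 0.0748 and 0.137 for Lyve1 and Mrc1 in TdLN over NdLN (edgeR).

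Signs that changed were those of values not called or of ratios. For TdLN over NdLN, Marco went to 0.04 with the block and ranged from -0.37 to 0.17 with 1 library left out, and Stab1 ranged from -0.13 to 0.00, the last without TdLN 4. With Flt4 in place of Prox1, the ratios for Tumor over TdLN were -1.08 for Stab1, -0.40 for Lyve1 and -1.01 for Cd209b, those for Tumor over NdLN were -1.11 for Stab1 and -1.89 for Cd209b, and those for TdLN over NdLN were -0.03 for Stab1, -0.37 for Stab2 and -0.33 for Clec4g. The Prox1 ratio of Cd209b for Tumor over NdLN was -0.22 without Tumor 2 and up to 1.24 without 1 of the other libraries, and that of Clec4g for TdLN over NdLN was -0.03 without TdLN 4, -0.04 without NdLN 2 and up to 0.26 without another. The cause was not tested. Depth limits Clec4g, Marco and Cd209b in Tumor libraries, where they had 10, 80 and 225 counts in all.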
